A study of Mus musculus with 11 samples.

Results

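The Pim kinases are 3 serine/threonine kinases encoded by the genes Pim1, Pim2 and Pim3, and this account follows their messenger RNA and their ribosome footprints in mouse CD8 T cells before and after stimulation. The genes were chosen by name, with earlier results of these data known, and all 3 of 3 were found among the 21957 genes counted. The kinases take their name from proviral integration sites of Moloney murine leukaemia virus in lymphomas. They lack a regulatory domain that switches the kinase off and on, so their activity follows how much of the protein is made and how fast it decays. Cytokine receptors raise Pim transcription through Janus kinases and STAT factors, and in lymphocytes the kinases favour survival, growth and cap-dependent translation beside the Akt and mTOR pathway. Their known substrates include the death protein Bad, the cell cycle inhibitor p27 and the translation repressor 4E-BP1.

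The cells were primed OT1 cells, mouse CD8 T cells whose transgenic receptor recognises an ovalbumin peptide. The tested group had been stimulated for 2 h with beads that carry antibodies against CD3 and CD28, so the receptor was engaged without its peptide. The comparison group is labelled T0 and unstimulated, although the treatment protocol describes cells left resting for 2 h. All cells of both groups then received cycloheximide, which arrests elongating ribosomes, for 10 min. Messenger RNA was measured in 3 stimulated and 3 unstimulated libraries, and ribosome footprints, the fragments of mRNA that a ribosome protects from nuclease, in 2 stimulated and 3 unstimulated libraries. The design addresses what changes in mRNA and in translation within 2 h of activation. Whether replicates are separate animals or cultures is not stated, so p-values measure only the spread between these libraries, which may be technical.

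RNA libraries held 21658263 to 28115983 counts in stimulated and 29279903 to 39346699 in unstimulated cells. Footprint libraries held 20848 and 23641 counts in stimulated cells and 11136 to 15237 in unstimulated cells, so a footprint count of 0 allows up to 144 CPM (counts scaled to a common library size) in stimulated and up to 269 CPM in unstimulated libraries. In RNA, stimulated replicates 1 and 2 and unstimulated replicate 2 stood apart: 0.189 to 0.276% of their counts fell on olfactory, vomeronasal and defensin genes, against 0.0300 to 0.0686% in the other 3 RNA libraries. The RNA changes of the 3 Pim genes are therefore also given within either set of 3 libraries, where 1 group is a single library (stimulated replicate 3 in the set of least background, unstimulated replicate 2 in the other) that is assumed to vary like the rest. All 10 T cell markers examined, Cd3e and Cd8a among them, exceeded 10 CPM in RNA. Their summed RNA level was 2535 to 4020 CPM in stimulated and 3360 to 3758 CPM in unstimulated cells.

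The 3 genes lie on different chromosomes of GRCm38. Pim1 (ENSMUSG00000024014) spans chromosome 17, 29490785 to 29496111, Pim2 (ENSMUSG00000031155) spans chromosome X, 7878306 to 7883432, and Pim3 (ENSMUSG00000035828) spans chromosome 15, 88862194 to 88865726. RefSeq models overlap Pim1 (Gm26885) and Pim3 (Gm33049), and neither model is among the genes counted. Whether the counting used strand is not stated, so reads from such an overlap cannot be told apart from those of the kinase gene. The counts cover coding sequence as a whole, so they do not separate the longer Pim1 and Pim2 proteins that start upstream at codons other than AUG from the shorter forms.

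The 250 bases before the RefSeq start of each gene are shown so that the genes, whose RNA moved by different amounts, can be compared. All are on the plus strand of GRCm38.p6, written 5′ to 3′, and capitals mark matches to GGGCGG, the core of the Sp1 site, on either strand. The windows are chr17:29490535-29490784 for Pim1, chrX:7878056-7878305 for Pim2 and chr15:88861944-88862193 for Pim3.
Pim1: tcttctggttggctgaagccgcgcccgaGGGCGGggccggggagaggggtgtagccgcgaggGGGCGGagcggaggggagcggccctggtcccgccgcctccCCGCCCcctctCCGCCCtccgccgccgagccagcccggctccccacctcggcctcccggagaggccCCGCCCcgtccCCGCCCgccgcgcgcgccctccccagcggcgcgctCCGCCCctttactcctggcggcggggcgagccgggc
Pim2: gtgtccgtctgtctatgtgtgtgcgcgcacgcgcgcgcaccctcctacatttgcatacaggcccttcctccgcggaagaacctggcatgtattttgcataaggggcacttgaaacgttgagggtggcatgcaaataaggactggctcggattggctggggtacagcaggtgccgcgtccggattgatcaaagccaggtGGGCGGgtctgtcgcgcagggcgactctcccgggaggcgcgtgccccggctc
Pim3: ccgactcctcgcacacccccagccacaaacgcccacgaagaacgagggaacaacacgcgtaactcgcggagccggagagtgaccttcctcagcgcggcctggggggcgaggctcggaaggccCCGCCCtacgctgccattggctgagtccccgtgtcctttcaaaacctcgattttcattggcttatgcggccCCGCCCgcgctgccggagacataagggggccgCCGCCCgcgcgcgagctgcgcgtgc
The Pim1 window held 7 such matches, the Pim3 window 3 and the Pim2 window 1, and 32.7% of the 32851 promoter windows of the same length held at least 1. The Pim1 window was 82.4% G and C, a higher share than in 99.4% of all windows, against 68.0% for Pim3, 62.0% for Pim2 and a median of 52.4%. None of the 3 windows held a match to TTCNNNGAA (STAT, in 7.02% of all windows), TGANTCA (AP-1, 6.75%), TGACGTCA (CREB, 1.55%), CACGTG (Myc and Max, 6.02%), TATAAA (the TATA box, 12.4%) or GGANTTTCC (NF-kappaB, 1.07%). These letters not being in a window says nothing of whether a factor binds the gene. A second RefSeq start of Pim1, inside the gene, had 1 match to CACGTG in the 250 bases before it and none to the other 6 motifs.

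In the RNA, Pim1 and Pim3 rose after stimulation, each by more than 2-fold, and Pim2 moved less and did not pass the test. Of the 3 genes, 2 rose and none fell, where 8.26% of the 18886 genes tested were called, 3.58% as higher and 4.68% as lower (edgeR's quasi-likelihood test, Benjamini-Hochberg adjusted p under 0.05). Without unstimulated replicate 2, 13024 of 19219 genes were called, and without stimulated replicate 2, 583 of 19142, so this share depends strongly on single libraries. Pim1 and Pim3 passed in both cases. In the main fit both genes passed the threshold and rose at least 2-fold, as did 1.73% of the genes tested. A 2-fold rise without regard to the test was common, since the upper quartile of log2 changes over all genes tested was 1.10. The levels of all 3 genes were higher in every stimulated library than in any unstimulated library, which was true of 15.4% of the genes tested, while 13.6% were lower in every stimulated library. In bulk libraries, more RNA per cell and more cells that hold the RNA cannot be told apart.

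Pim1 encodes the founding member of the family and a well known target of STAT5. Its RNA level was 507, 610 and 827 CPM in stimulated replicates 1, 2 and 3, against 254, 242 and 269 CPM in unstimulated replicates 1, 2 and 3. The unstimulated libraries lay close together, and the lowest stimulated library was still well above all of them. The means were 648 ± 164 CPM in stimulated and 255 ± 13.4 CPM in unstimulated cells (SD, n = 3 each). The log2 change, stimulated minus unstimulated, was 1.34 ± 0.22 (SE), a 2.54-fold rise with an edgeR adjusted p = 0.00405. That change exceeded those of 88.6% of all genes tested and of 98.4% of the 8705 genes with at least 10 CPM in either group. It was 1.21 within the 3 RNA libraries of least background and 1.23 within the 3 of most background.

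Pim3 encodes the member first found as a depolarisation-induced kinase in rat cells. Its RNA level was 70.7, 96.2 and 136 CPM in stimulated replicates 1, 2 and 3, against 36.6, 29.6 and 38.2 CPM in unstimulated replicates 1, 2 and 3. Stimulated replicate 3 was the highest and stimulated replicate 1 the lowest of the stimulated libraries, as for Pim1. The means were 101 ± 32.7 CPM in stimulated and 34.8 ± 4.58 CPM in unstimulated cells (SD, n = 3 each). The log2 change was 1.53 ± 0.23, a 2.90-fold rise (edgeR adjusted p = 0.00265). This was above those of 94.9% of all genes tested and of 98.8% of the genes with at least 10 CPM. It was 1.41 within the 3 RNA libraries of least background and 1.53 within the 3 of most background.

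Pim2 encodes the X-linked member, a kinase of lymphocyte growth and survival. Its RNA level was 60.0, 69.1 and 92.8 CPM in stimulated replicates 1, 2 and 3, against 54.2, 51.3 and 56.2 CPM in unstimulated replicates 1, 2 and 3. The groups did not overlap, but the lowest stimulated and the highest unstimulated library were close. The log2 change was 0.46 ± 0.19 (95% interval 0.05 to 0.87), with an unadjusted p = 0.0316 and an adjusted p = 0.186 by edgeR, which did not pass. The median log2 change was 0.39 over all genes tested and -0.09 over those with at least 10 CPM. Pim2 stood above 52.1% of the first set and 88.1% of the second.

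Whether Pim2 passed depended on which genes entered the fit and on whether the background share was a covariate. With only genes of at least 10 CPM its log2 change was 0.55 (edgeR adjusted p = 1.76e-06), while 6361 of 8725 genes were then called. With only genes that averaged at least 50 counts in a group it was 0.51 (edgeR adjusted p = 0.00287), while 4932 of 12611 genes were then called. In the main fit 1560 of 18886 genes were called, so passing was far more common under these filters. With the background share as a covariate Pim2 passed as well (0.62, edgeR adjusted p = 0.00743), while 3016 of 18886 genes were then called. With 1 stimulated against 2 unstimulated libraries of least background the log2 change of Pim2 was 0.30. With 2 stimulated against 1 unstimulated library of most background it was 0.36. These 2 fits rest on a group of 1 library, so only the size of the change is given. Other fits moved the log2 change of Pim2 too. By RLE size factors Pim2 was at 0.23 where the median of all genes was 0.19, and by DESeq2 at 0.14 where the median was 0.27. Under the same settings Pim1 was at 1.12 and 1.02 and Pim3 at 1.29 and 1.2, and both passed. The balance of calls over all genes moved too: 43.4% of calls were higher in stimulated cells by TMM, 19.7% by RLE and 19.3% by library totals. It was 12.8% by DESeq2, which also tested fewer genes, 28.9% without a filter and 18.7% without stimulated replicate 3.

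**Figure D1:**
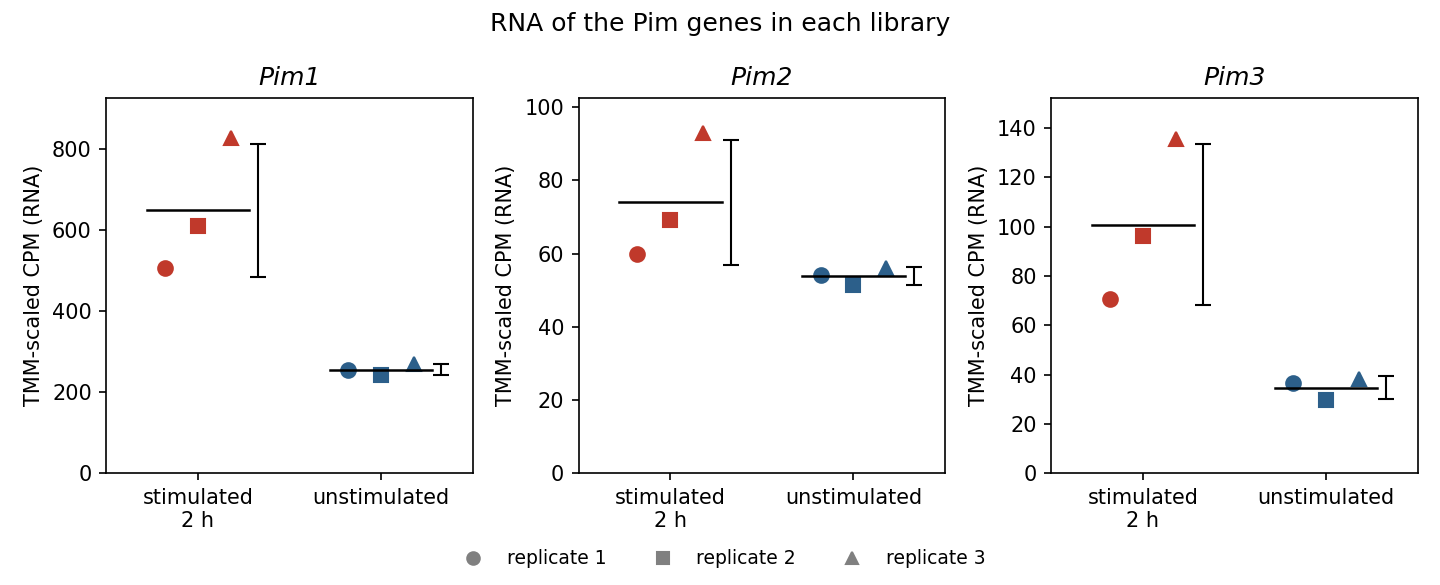
RNA level (TMM-scaled CPM, linear axis from 0) of each Pim gene in the 3 stimulated (red, left) and 3 unstimulated (blue, right) libraries, with the replicate number as the symbol, the mean as a line and the SD as a bar. Pim1 and Pim3 stimulated libraries sit well above the unstimulated ones, while the lowest stimulated Pim2 library, at 60.0 CPM, is near the highest unstimulated one, at 56.2 CPM.

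Ratios between the genes within a library do not depend on how libraries are scaled, and the length of the genes cancels when such a ratio is compared between groups. The ratio of Pim2 to Pim1 RNA counts was 0.118, 0.113 and 0.112 in stimulated replicates 1, 2 and 3, against 0.214, 0.212 and 0.209 in unstimulated replicates 1, 2 and 3. The values within a group were nearly equal and the groups did not overlap. How many other pairs of genes part the groups in this way was not counted. Of single genes, 15.4% were higher and 13.6% lower in every stimulated library. The mean log2 ratio was -3.12 ± 0.04 in stimulated and -2.24 ± 0.02 in unstimulated cells (SD, n = 3 each), a difference of -0.88. The exact two-sided permutation test gave p = 0.1, the smallest that 3 against 3 libraries allow, and an adjusted p = 0.15 over the 3 pairs of genes compared.

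The ratio of Pim3 to Pim2 counts was 1.18, 1.39 and 1.46 in stimulated replicates 1, 2 and 3, against 0.675, 0.576 and 0.680 in unstimulated replicates 1, 2 and 3. The log2 ratio differed by 1.06, with no overlap (exact permutation p = 0.1, adjusted p = 0.15). For Pim3 to Pim1 the groups overlapped, with 0.140, 0.158 and 0.164 in stimulated and 0.144, 0.122 and 0.142 in unstimulated replicates 1, 2 and 3. That log2 ratio differed by 0.18 (exact permutation p = 0.3, adjusted p = 0.3), a difference near the SD within either group (0.12 and 0.13).

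Of all Pim RNA counts, Pim2 held 9.04 ± 0.323% in stimulated and 15.7 ± 0.216% in unstimulated cells. Pim1 held 78.8 ± 0.589% in stimulated and 74.2 ± 0.683% in unstimulated cells, and Pim3 held 12.1 ± 0.911% in stimulated and 10.1 ± 0.818% in unstimulated cells (SD, n = 3 each). Each of these 3 shares gave an exact permutation p = 0.1, again the smallest possible. The coding lengths were not used here, so the shares describe counts and do not rank the genes by transcript number.

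**Figure D2:**
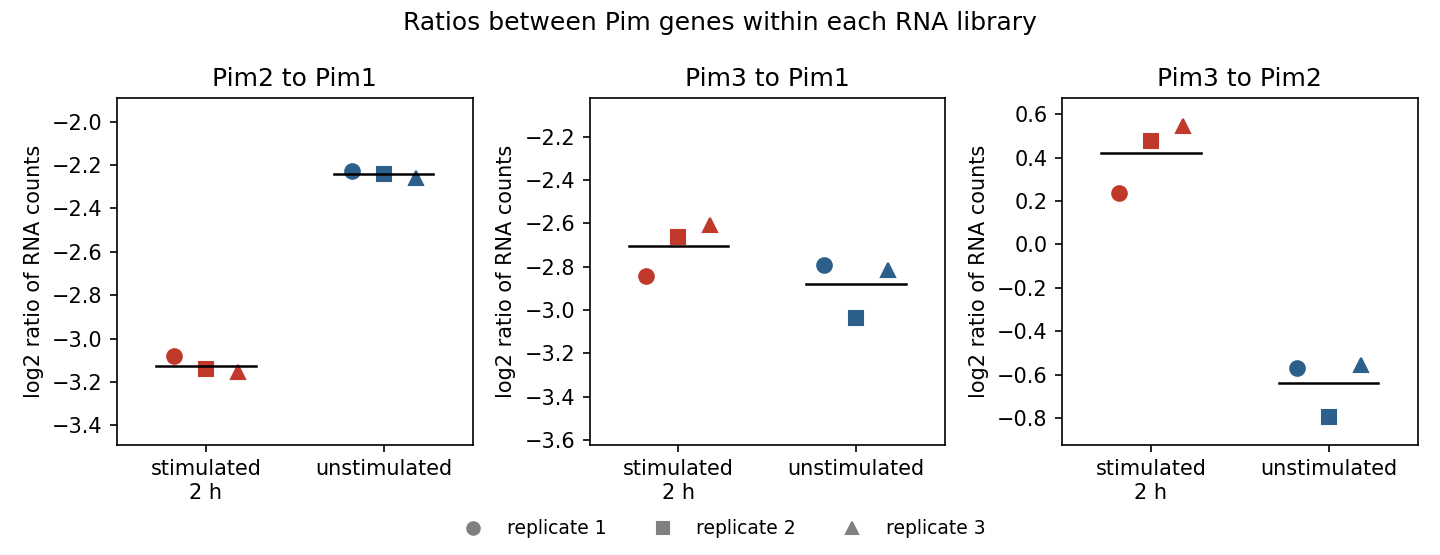
Log2 ratio of RNA counts between pairs of Pim genes within each library, stimulated (red, left) and unstimulated (blue, right), with the replicate number as the symbol and the mean as a line (each panel spans the same range of log2 units). The Pim2 to Pim1 ratio is lower in all 3 stimulated libraries, the Pim3 to Pim2 ratio is higher in all 3, and the Pim3 to Pim1 ratio overlaps.

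Footprints report how many ribosomes sit on all copies of an mRNA together, and only Pim1 passed the filter on low counts. In the stimulated libraries 34 and 27 Pim1 footprints were counted in replicates 2 and 3, against 7, 7 and 8 in unstimulated replicates 1, 2 and 3. The unstimulated counts fell short of the filter, so Pim1 entered the test only through the group where it was higher. Scaled to library size these were 1572 and 1124 CPM in stimulated and 728, 462 and 496 CPM in unstimulated libraries, with no overlap between the groups, as for 20.7% of the 256 genes tested, while 18% were lower in both stimulated libraries. The edgeR log2 change was 1.29 ± 0.51 (95% interval 0.28 to 2.30), with an unadjusted p = 0.0123 and an adjusted p = 0.0954, which did not pass. Among all 256 genes 9.38% passed, 5.86% as higher and 3.52% as lower. Pim1 thus moved in footprints by about as much as in RNA, without passing the test. From pooled counts, 61 in stimulated against 22 in unstimulated cells, the fold was 2.48 with an exact 95% interval of 1.5 to 4.25 that covers counting error only.

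Pim2 and Pim3 did not pass that filter. Pim2 had 2 and 7 footprints in stimulated replicates 2 and 3, against 1, 3 and 4 in unstimulated replicates 1, 2 and 3. The pooled fold of Pim2 was 1.01 (exact 95% interval 0.345 to 3.0), with an exact permutation p = 1 over libraries. For Pim2 the groups overlapped. Pim3 had 7 and 2 footprints in stimulated replicates 2 and 3, against 1, 3 and 3 in unstimulated replicates 1, 2 and 3. The pooled fold of Pim3 was 1.15 (exact 95% interval 0.382 to 3.64), with an exact permutation p = 0.8, where 2 against 3 libraries cannot go below 0.2.
The 2 stimulated libraries disagreed in order for these genes, Pim2 being higher in replicate 3 and Pim3 in replicate 2. The interval of Pim3 footprints contains both no change and the 2.90-fold rise of its RNA, so neither could be told from the other at this depth. Without a filter, edgeR gave footprint log2 changes of 0.26 ± 1.12 for Pim2 (adjusted p = 0.952) and 0.48 ± 1.15 for Pim3 (adjusted p = 0.904), and with genes of at least 10 CPM 0.02 ± 0.99 for Pim2 (adjusted p = 0.997) and 0.26 ± 1.02 for Pim3 (adjusted p = 0.974). A difference in footprints was not detectable for Pim2 or Pim3.

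**Figure D3:**
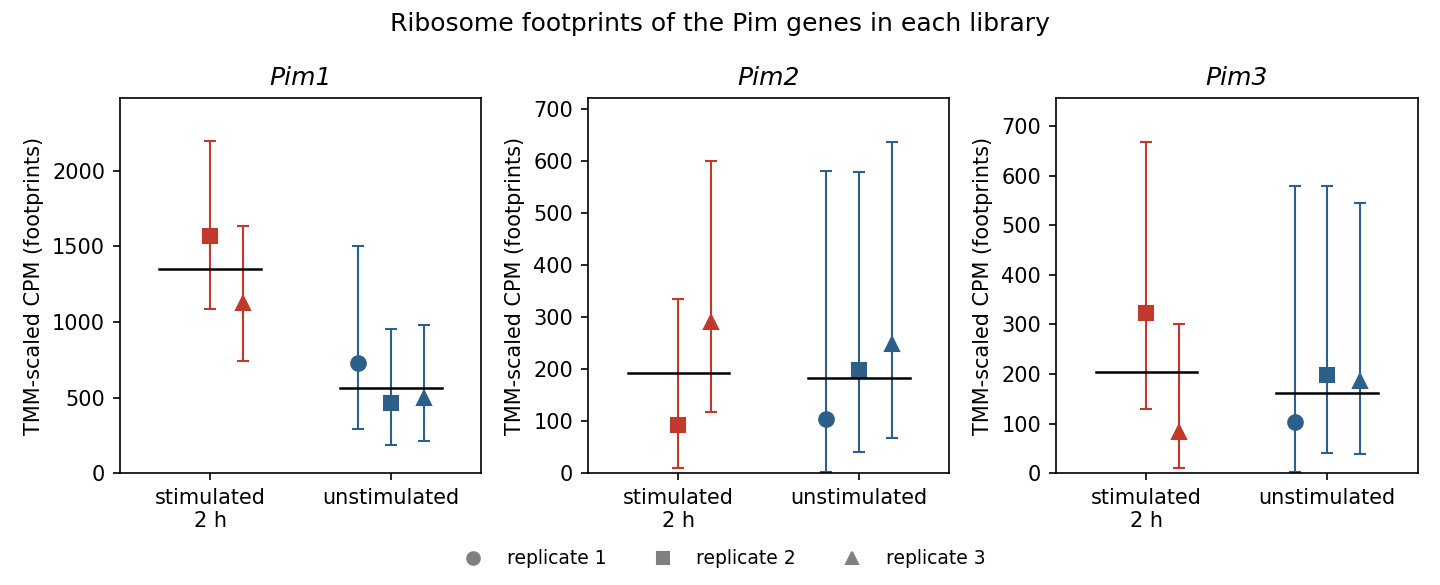
Footprint level (TMM-scaled CPM, linear axis from 0) of each Pim gene in the 2 stimulated (red, left) and 3 unstimulated (blue, right) libraries, with the replicate number as the symbol, the group mean as a line and the exact 95% Poisson interval of each count as a bar. The 2 stimulated Pim1 libraries, at 1572 and 1124 CPM, lie above all 3 unstimulated ones, but Pim1 bars of the groups overlap in part. The bar of stimulated replicate 3 (741 to 1636 CPM) overlaps all 3 unstimulated bars. That of stimulated replicate 2 (1089 to 2197 CPM) overlaps only unstimulated replicate 1 (293 to 1501 CPM). The bars of Pim2 and Pim3 overlap throughout.

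Translational efficiency is the level of footprints relative to that of RNA, and its change was fitted as a term for assay by stimulation across all 11 libraries. Pim1 entered this fit too only through its stimulated footprints, the group where they were higher. For Pim1 the log2 change in efficiency was -0.15 ± 0.36 (95% interval -0.90 to 0.59, edgeR adjusted p = 0.842), where 3.14% of the 255 genes tested passed, 1.57% as higher and 1.57% as lower. The interval reaches well to both sides of 0, so equal efficiency is not shown. The value was 0.20 by library totals, 0.20 without a filter and 0.052 by DESeq2, and -0.17 by RLE, so its sign depended on the fit. The ratio of footprint to RNA CPM for Pim1 was 2.06 (95% counting interval 1.58 to 2.65) in stimulated and 2.10 (1.32 to 3.18) in unstimulated cells. RNA and footprints were scaled separately, so such a ratio is relative to the other genes of each assay.

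For Pim3 the footprint to RNA ratio was 1.95 (0.893 to 3.71) in stimulated and 4.85 (1.95 to 9.99) in unstimulated cells, from 9 and 7 footprints. For Pim2 it was 2.67 (1.22 to 5.06) in stimulated and 3.61 (1.56 to 7.12) in unstimulated cells, from 9 and 8 footprints. The 95% counting intervals of the groups overlap for both genes. Fitted without a filter on low counts, the log2 change in efficiency was -1.10 ± 0.90 for Pim3 (edgeR adjusted p = 0.565) and -0.22 ± 0.85 for Pim2 (adjusted p = 0.901).

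Footprints of the family as a whole numbered 43 and 36 in stimulated replicates 2 and 3, against 9, 13 and 15 in unstimulated replicates 1, 2 and 3. Pim1 supplied 77.2% of them in stimulated cells (Wilson 95% interval 66.8 to 85.1%) and 59.5% in unstimulated cells (43.5 to 73.7%). These intervals overlap. RNA counts thinned to 15237 per library, the total of the deepest unstimulated footprint library, left 8, 12 and 12 Pim1 counts in stimulated and 4, 4 and 6 in unstimulated libraries, too few for Pim1 to enter the test.

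**Figure D4:**
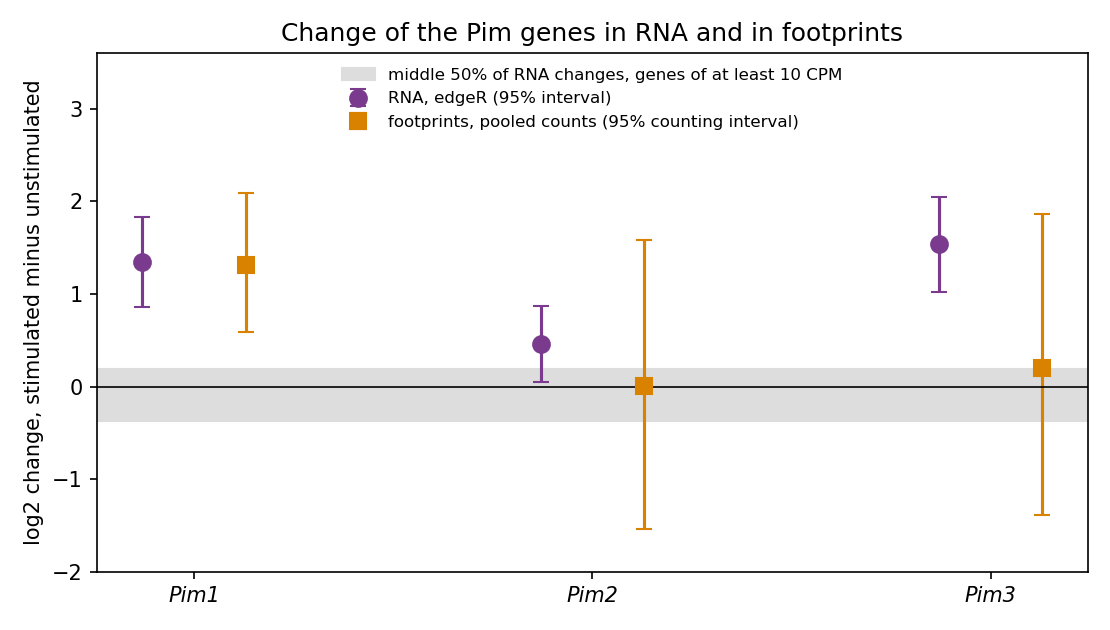
Log2 change, stimulated minus unstimulated, of each Pim gene in RNA (purple circles, edgeR estimate with its 95% interval) and in footprints (orange squares, pooled counts with the exact 95% counting interval). The grey band is the middle 50% of RNA changes over 8705 genes of at least 10 CPM. RNA and footprints of Pim1 sit together near 1.3, and the footprint intervals of Pim2 and Pim3 span 0.

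The genes around the Pim kinases were described by 5 lists, whose members overlap in part. The lists were chosen with earlier results of these data known, so their counts are a description and not a test. Their counts stand beside the 3.58% of all 18886 genes tested that rose and the 4.68% that fell, and beside 16.7% called in either direction, 6.86% as higher, among genes of at least 10 CPM. Upstream of Pim, 4 of 26 cytokine receptors, Janus kinases and STAT factors rose, 3 fell and 19 did not pass, with a median RNA log2 change of -0.20. Il2ra, the subunit that gives the interleukin-2 receptor high affinity, rose to 1025 ± 219 CPM in stimulated cells, against 412 ± 25.4 CPM in unstimulated cells (log2 change 1.32). Stat5a, a transcription factor that the interleukin-2 receptor activates, rose to 178 ± 46.5 CPM in stimulated cells, against 77.5 ± 5.12 CPM in unstimulated cells (1.2). The interferon gamma receptor subunit Ifngr1 (-1.34) and the interleukin-7 receptor Il7r (-1.34) fell.

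Of 14 other genes that cytokines and STAT5 control, 9 rose, 1 fell and 4 did not pass, where 3.58% of all genes tested rose and 4.68% fell. Their median log2 change was 1.29, beside 0.39 over all genes tested and -0.09 over those of at least 10 CPM. Since this list too was chosen with earlier results of these data known, its counts only describe it. Cish, a feedback inhibitor of cytokine receptors, was at 385 ± 97.2 CPM in stimulated and 48.6 ± 2.31 CPM in unstimulated cells (2.99). The cytokine gene Osm was at 33.8 ± 8.92 CPM in stimulated and 6.37 ± 0.453 CPM in unstimulated cells (2.40). Bcl6, a repressor that STAT5 is known to silence, fell by 2.93 on the log2 scale.

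Among 27 reported Pim substrates 3 rose, 5 fell and 19 did not pass (8.26% of all genes were called in either direction), with a median of -0.06. Socs1, an inhibitor of Janus kinases, rose (1.95), as did Myc (1.83), whose protein Pim kinases stabilise. The transcription factor gene Myb (-1.43) and Cdkn1b (-1.31), which encodes p27, fell. Of 24 genes of the parallel Akt and mTOR pathway none rose and 1 fell, Pik3r1 (-1.28), a regulatory subunit of phosphoinositide 3-kinase, with a median of -0.15. Of 19 factors of mRNA decay, cap binding and protein turnover, 1 rose and 1 fell. In lists of 24 and 19 genes such counts are near the 3.58% higher and 4.68% lower over all genes. They are not read as a result about either list. The cap-binding protein gene Eif4e rose (0.88), and Zfp36l2 (-1.25), which encodes a protein that destabilises AU-rich mRNAs, fell. All these calls are edgeR's adjusted p under 0.05, and those named ranged from 2.35e-06 for Bcl6 to 0.0140 for Eif4e.

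**Figure D5:**
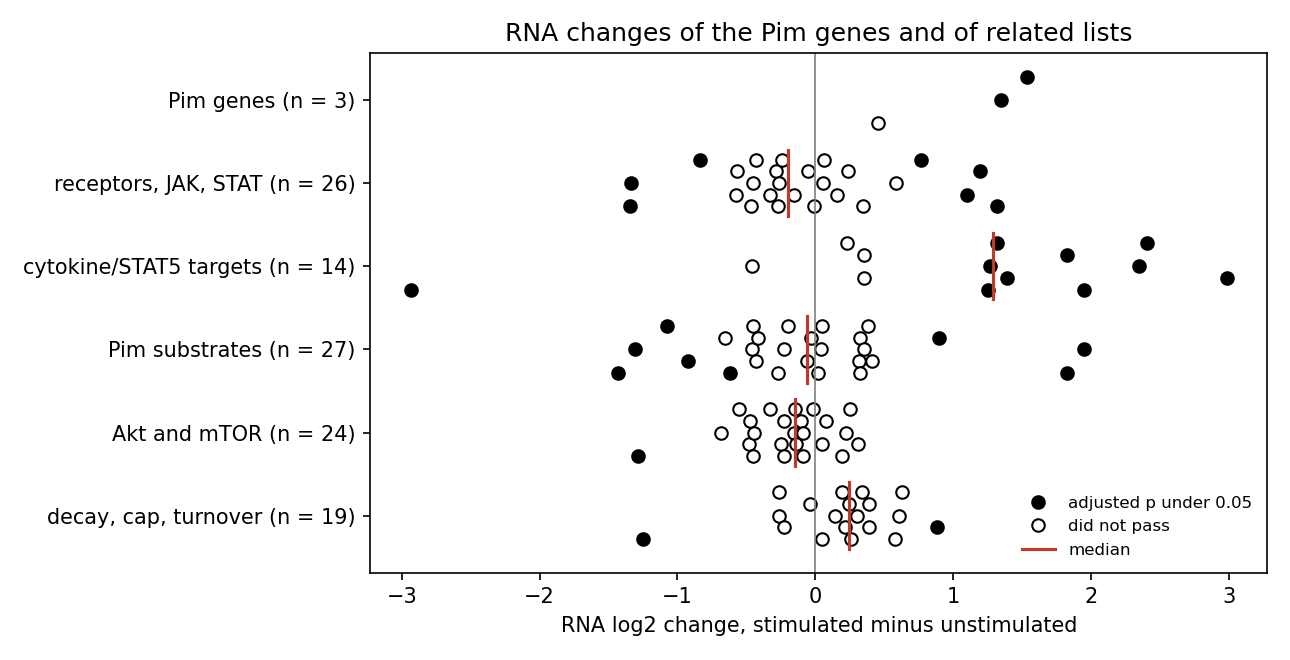
RNA log2 change, stimulated minus unstimulated, of the Pim genes (top) and of each gene in the 5 related lists, filled where the edgeR adjusted p was under 0.05 and open where it was not, with each list's median in red. The list of cytokine and STAT5 targets has its median at 1.29, while the other 4 medians lie between -0.20 and 0.25. All 5 lists were chosen with earlier results of these data known.

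By Pearson correlation of log2 CPM over the 6 RNA libraries, among 8491 other genes of at least 10 mean CPM, Nedd9 (r = 0.999), Plscr1, Hemk1, Dimt1 and Irgm1 followed Pim1 most closely. Mafg, Slc19a1, Mars2, Plk3 and Atad3a were closest to Pim3 (r over 0.999 for each). Trim32, Fam206a, Ruvbl2, Prmt1 and Bcl3 were closest to Pim2 (r = 0.999 for each). These 6 points share their libraries, their scaling and the split into 2 groups, so high values of r are common, and the correlations are given as a description.

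Markers of other cells were not at 0 in the RNA, and their sums were low except for those of natural killer cells. The 5 markers of CD4 and regulatory T cells summed to 57.6 to 77.5 CPM in stimulated and 28 to 30.5 CPM in unstimulated cells, and 2 of the 5, Ikzf4 and Cd40lg, rose, beside 3.58% of all genes tested. Cd4 itself was at 1.97 to 2.85 CPM in stimulated and 0.692 to 2.41 CPM in unstimulated cells. The 8 dendritic cell markers summed to 40.6 to 45.9 CPM in stimulated and 22.2 to 28.5 CPM in unstimulated cells, and 2 of the 8 rose, beside the same 3.58%. B cell and myeloid markers were lower still, none of them above 10 CPM. The 8 B cell markers summed to 12.0 to 23.7 CPM in stimulated and 6.83 to 19.4 CPM in unstimulated cells, with 0 footprints in stimulated and 2 in unstimulated cells. The 11 myeloid markers summed to 17.5 to 22.1 CPM in stimulated and 10.4 to 17.1 CPM in unstimulated cells. Killer cell receptors and granule genes are also made by activated CD8 T cells. The 7 natural killer cell markers summed to 275 to 388 CPM in stimulated and 373 to 431 CPM in unstimulated cells. Only 2 of the 7 averaged at least 10 CPM, so the sum follows few genes. The median log2 change of the 6 tested was 0.66, and none of them passed. The 9 erythroid and platelet markers summed to 7.07 to 11.1 CPM in stimulated and 7.64 to 10.3 CPM in unstimulated cells, and 1 of the 4 tested fell, beside 4.68% of all genes tested. The part of other cells in the Pim changes was not tested.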

How the data were processed

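The files hold raw counts per gene over coding sequences, deposited by the authors without normalization, for 6 RNA and 5 footprint libraries. Footprints of stimulated replicate 1 were not analysed here. STAR 2.5 and mm10 (GRCm38) are named in the submitters' processing notes. The counting tool, annotation release, strand handling and read filters are not given in the sources used here. The series table and the files of single libraries held the same 241527 values. Symbols were found for 21838 of 21957 Ensembl identifiers. Positions and promoter sequences come from RefSeq on GRCm38.p6.

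The Pim genes and the related lists were chosen with earlier results of these data known. Each assay was fitted with edgeR 4.0.16 in R 4.3.3 (glmQLFit, TMM on genes that pass filterByExpr, minimum count 10 and minimum total 15), over all genes, with Benjamini-Hochberg adjustment and a threshold of 0.05. Efficiency was the interaction of assay and stimulation, for genes that passed in both assays. CPM are TMM-scaled, correlations used a prior count of 2 and log2 changes edgeR's prior of 0.125. The SE of a log2 change is its size divided by the square root of the F statistic. Footprint folds of pooled counts have exact conditional intervals, and exact permutation tests ran in SciPy 1.17.1. All tests were two-sided, and intervals and floors cover counting error only, since reads without molecular identifiers are not independent molecules. Scripts were tested on simulated counts. The genes named beside the Pim genes are, per list, up to 2 raised and 2 lowered with the largest changes past the threshold, provided that the groups did not overlap and 1 of them averaged 10 CPM or more, and the 5 genes most correlated with each Pim gene. Bad, Cd3e, Cd8a, Cd4, Ikzf4, Cd40lg, Gm10800, Gm10801, Gm20594 and Lars2 are named outside that rule. Coding lengths were not available in the tables used, so the planned shares per coding length were taken on counts. Alternatives were other scalings (RLE, library totals, TMM without Gm10800, Gm10801, Gm20594 and Lars2), DESeq2 1.42.0, limma 3.58.1 voom, other filters, a replicate block, each library left out, and thinned RNA counts. A background covariate and fits within the 3 RNA libraries of least and of most background were added after seeing the data.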

Additional observations from a re-analysis of the deposited data

How the results depend on the processing

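Pim1 and Pim3 passed in RNA under all 18 alternatives that could test them, with log2 changes of 1.02 to 1.51 for Pim1 and 1.15 to 1.83 for Pim3. Leaving out 1 library gave 1.04 to 1.31 for Pim1, 1.15 to 1.51 for Pim3 and 0.15 to 0.42 for Pim2, the last never past the threshold. Pim2 did pass with genes averaging at least 50 counts (0.51), with genes of at least 10 CPM (0.55) and with a background covariate (0.62). Why Pim2 passed under these settings was not tested. Within the 3 RNA libraries of least background its log2 change was 0.30, and within those of most background 0.36. There 1 side is a single library assumed to vary like the others.

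The number of RNA genes called was 1560, and 5220 by library totals, 2829 by DESeq2, 3387 by voom, 4932 with genes averaging at least 50 counts, 6361 with genes of at least 10 CPM, 2404 with the replicate block, 3016 with the background covariate, 7341 and 4584 within the libraries of least and most background, and 19 with RNA thinned to 15237 counts. Leaving out 1 library gave 583 of 19142 (without stimulated replicate 2) to 13024 of 19219 (without unstimulated replicate 2). It gave 789 of 18950 and 5255 of 19468 without stimulated replicates 1 and 3. Without unstimulated replicates 1 and 3 it gave 917 of 19492 and 646 of 19487. For footprints the count was 24, and 11 by DESeq2, 11 without a filter, 14 with a mean of at least 50 counts, 14 with at least 10 CPM, and 12 (without stimulated replicate 3) to 30 without 1 library, with 15 without stimulated replicate 2 and 16 without unstimulated replicate 2.

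Pim1 footprints kept their direction and did not pass in any of 13 alternatives (1.09 to 1.57, adjusted p = 0.0752 to 0.763, and 1.09 to 1.52 without 1 library). The Pim1 efficiency change turned to 0.20 by library totals, 0.052 by DESeq2 and 0.20 without a filter, and ranged from -0.37 to 0.058 (without stimulated footprint replicate 3) without 1 library, with adjusted p = 0.672 to 0.976 over all 19. Efficiency calls numbered 8 of 255 tested, 15 of 255 by library totals and 4 of 10636 without a filter. They numbered 0 of 255 by voom (38 at unadjusted p under 0.05) and 0 of 1362 with at least 10 CPM (168). Leaving out 1 library gave 0 (without unstimulated RNA replicate 1, 49 unadjusted) to 9 (without stimulated RNA replicate 3), each of 255. Pim shares of RNA counts moved by 4.29 to 4.99 points for Pim1, -6.83 to -6.52 for Pim2 and 1.56 to 2.54 for Pim3 without 1 library. Shares per coding length were not run.

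Same-numbered RNA libraries did not deviate together in every pair (r = -0.788, 0.640 and 0.726 for replicates 1, 2 and 3), so the numbers were not read as pairs. With the replicate block the log2 changes in RNA were 1.32 for Pim1, 0.43 for Pim2 and 1.5 for Pim3, and no Pim call changed. Pim2 and Pim3 footprints rest on 9 or fewer counts per group and on 2 stimulated libraries.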

Other observations

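The nearest counted genes on either side of each Pim gene did not pass in RNA. Slc35a2, which lies 488 bases after Pim2, was at 20.9 CPM in stimulated and 22.8 CPM in unstimulated cells (log2 change -0.13, edgeR adjusted p = 0.586), and Otud5, 1679 bases before Pim2, was at 113 CPM in stimulated and 109 CPM in unstimulated cells (0.05, adjusted p = 0.857). Creld2, the nearest counted gene before Pim3, was at 27.7 CPM in stimulated and 37.7 CPM in unstimulated cells (-0.44, adjusted p = 0.127), and Ttll8, the nearest after it, was at 1.17 CPM in stimulated and 0.474 CPM in unstimulated cells (1.31, adjusted p = 0.318). Fgd2 and Tmem217, on either side of Pim1, were at 2.25 and 2.16 CPM in stimulated cells, against 2.66 and 1.75 CPM in unstimulated cells (-0.24 and 0.31, adjusted p = 0.656 and 0.620). These genes were chosen by position after the Pim values were known.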
